A study of Mus musculus with 20 samples.

Results

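The regions described here were 6144 of the 42403 GATA6-binding regions of the series, or 14.5%. They were selected on measured binding: by the study's clustering of GATA6 enrichment over time they belonged to the Late group (43.1% of the 14243 Late regions), by its peak calls they bound SOX17 during differentiation, and by its peak calls they bound none of the pluripotency transcription factors (PTF) OCT4, SOX2 and ESRRB, either before or during GATA6 induction. Those binding values chose the regions and are not tested here. What was measured in the samples is chromatin accessibility by ATAC-seq, in which a transposase inserts adapters into exposed DNA, given by the authors as reads per region from fragments under 100 bp scaled to library size (RPM), and the rule did not use accessibility.

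The cells were mouse KH2 embryonic stem (ES) cells of C57BL/6 x 129/Sv background carrying a doxycycline (Dox)-inducible Gata6 cassette, grown on feeder fibroblasts with LIF and induced with 1 µg/mL Dox. The paper's methods give a 20 min adsorption of feeders to plastic for RNA-seq, and its ATAC-seq methods name no such step. Uninduced cells (d0) and cells titled 8h, 16h, d1 and d2 had 3 samples each, and cells titled d4 had 2. The sample labels give Dox times of 16, 24, 48, 72 and 96 h for the groups titled 8h, 16h, d1, d2 and d4, so the titles and the labels differ for all but the last, and the titles are used here. The remaining 3 samples were the extraembryonic endoderm stem cell line XEN X10, of CD1 background, wild type, not induced and grown without LIF, so that strain and culture cannot be told apart from cell type in any comparison with XEN. Inducible cells came from selected transgenic clones, and the clone used for ATAC-seq was not given in the sources used here. Only accessibility at GATA6-bound regions was analysed, so no RNA marker checked the identity of the cells.

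GATA6 is a zinc finger transcription factor that binds GATA sequences and drives the primitive endoderm, the extraembryonic lineage that forms beside the pluripotent epiblast in the mouse blastocyst. SOX17 is an HMG box factor of the same lineage that bends DNA at sequences of the ATTGT type and is switched on after GATA6. Regions of this kind therefore hold some of the sites where both endoderm factors are found without the pluripotency factors, namely those in the Late group. XEN cells are the cultured counterpart of the lineage.

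The deposited table gives the best match to a GATA6 motif and to a SOX17 motif in each region. To show what such sites look like, 6 regions holding both were read from the mm10 genome, taken from the regions with the largest change to d4 and the highest of each gene list described further on, for the highest summed motif scores among those whose matches and flanks fit in 300 bases, with 1 region per gene. Each is written 5′ to 3′ on the plus strand, with both best matches in capitals and 12 flanking bases, so a match on the minus strand appears as its reverse complement.
Elf5, chr2:103444910-103445036: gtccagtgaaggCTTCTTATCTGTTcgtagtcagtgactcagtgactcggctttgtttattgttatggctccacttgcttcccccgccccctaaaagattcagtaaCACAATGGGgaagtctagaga
Sox2, chr3:35057817-35057925: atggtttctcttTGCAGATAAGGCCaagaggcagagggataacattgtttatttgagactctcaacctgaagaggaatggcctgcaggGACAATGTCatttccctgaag
Abhd5, chr9:122389421-122389573: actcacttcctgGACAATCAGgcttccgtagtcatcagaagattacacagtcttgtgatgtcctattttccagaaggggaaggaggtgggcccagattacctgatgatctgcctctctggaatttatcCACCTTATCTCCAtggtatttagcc
Ehd4, chr2:120121709-120121939: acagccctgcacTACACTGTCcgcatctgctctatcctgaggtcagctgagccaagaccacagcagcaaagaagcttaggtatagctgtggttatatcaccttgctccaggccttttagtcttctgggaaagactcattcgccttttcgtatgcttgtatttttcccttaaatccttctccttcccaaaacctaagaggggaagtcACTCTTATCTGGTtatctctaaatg
Dkk2, chr3:131910842-131910895: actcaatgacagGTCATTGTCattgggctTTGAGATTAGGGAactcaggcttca
Foxa2, chr2:148001804-148001925: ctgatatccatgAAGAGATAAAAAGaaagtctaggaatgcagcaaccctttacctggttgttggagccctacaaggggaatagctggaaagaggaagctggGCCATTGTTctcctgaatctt

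Each region carries the name of the gene it lies in or, between genes, of the gene with the nearest start site, which is not evidence that the region controls that gene. In the Dkk2 region the centres of the matches lay 19 bp apart, in the Sox2 region 74 bp, in the Foxa2 region 87 bp, in the Elf5 region 92 bp, in the Abhd5 region 118 bp and in the Ehd4 region 196 bp. The SOX17 match scored 12.2 at Dkk2 and 12.1 at Elf5 but 7.45 at Ehd4, whose GATA6 match scored 13.8. The 6 examples thus spanned a strong SOX17 match beside a weak GATA6 match and the reverse.

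Accessibility of the regions stayed near its starting level through d1 and was higher at d2 and d4. The median region started from 0.0441 RPM in uninduced cells and had 0.0502, 0.0464 and 0.0569 RPM in the 8h, 16h and d1 groups, then 0.125 RPM at d2 and 0.183 RPM at d4, beside 0.169 RPM in XEN cells. In such bulk samples, fewer cells with an open region and less opening per cell cannot be told apart. Per kb of region width the median was 0.0892 RPM at d0, 0.371 RPM at d4 and 0.352 RPM in XEN. Values at d0 ran from 0.00572 to 1.28 RPM, with the middle range of the regions between 0.029 and 0.0716 RPM. At d4 that middle range was 0.103 to 0.315 RPM, above the d0 range and not overlapping it.

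The change of a region was taken as the difference of log2(RPM + 0.03), a scale that understates changes of regions with few reads. The median change from d0 was 0.09 at 8h, 0.04 at 16h, 0.21 at d1, 0.95 at d2, 1.37 at d4 and 1.31 in XEN. The averaged values hold no replicates, and these differences from d0 have no test. Over all 42403 regions the median change was 0.69 at d2, 0.52 at d4 and 0.40 in XEN. With each column centred on its own median, the median change of the Late SOX17 regions without PTF was 0.12 at d2, 0.81 at d4 and 0.82 in XEN. The difference from GATA6-bound regions at large was thus small at d2 and larger at d4 and in XEN.

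Of the 6144 regions, 62 (1.01%) were more than 2-fold above d0 on that scale at d1, where 4.55% of all regions were. At d2 the count was 2929 (47.7%), beside 36.8% of all regions, with 1 lower, and with columns centred it was 945 higher and 114 lower. At d4 it was 4346 (70.7%), beside 31.0%, and in XEN cells 4030 (65.6%), beside 27.7%. The share of these regions was below the background at d1 and well above it at d4. Regions more than 2-fold below d0 numbered 0 at d4, where 7.27% of all regions were, and 4 in XEN, where 8.83% were. With columns centred these counts were 7 at d4 and 40 in XEN, and after quantile normalisation 5 and 44. The 4 uncentred ones, named after their values were seen, lay at Col4a1, Xcl1, Ly86 and Sh3tc2.

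**Figure D1:**
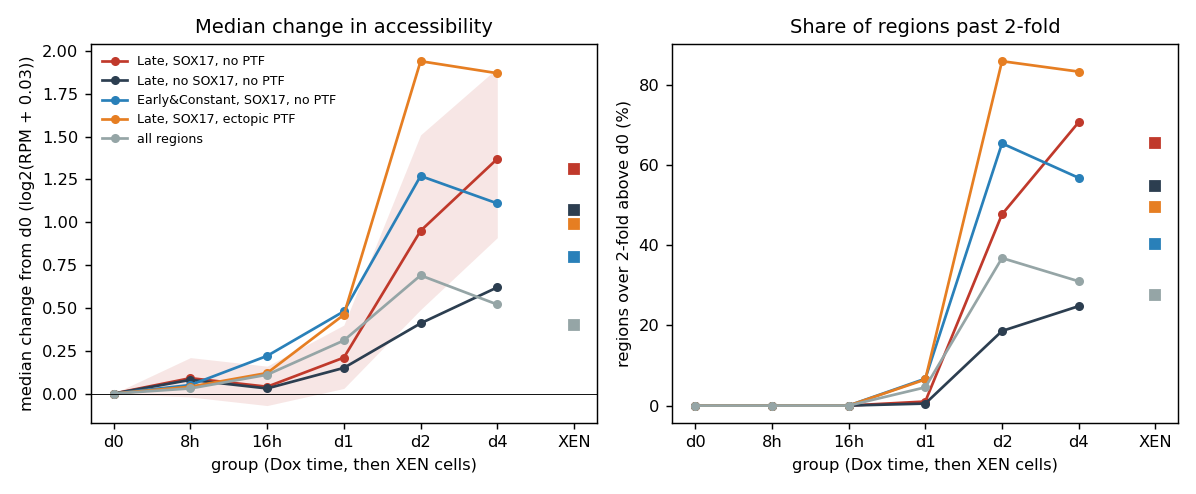
Left, median change in accessibility from d0 on the log2(RPM + 0.03) scale for each group, for the Late SOX17 regions without PTF (red, shading from the lower to the upper quartile through d4) and for the regions set beside them. Right, percentage of regions more than 2-fold above d0. Squares are XEN cells. The red line runs from 0.21 at d1 to 1.37 at d4, and its share past 2-fold from 1.01% to 70.7%.

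Single libraries could be read back from the averages for part of the table. Where the deposited values carry enough digits, each average was split into whole reads of its libraries, which gave 3586 of the 6144 regions (58.4%) and 24727 of all regions. All 3 libraries were recovered for 8h, 16h, d1 and d2, and both for d4, but none for d0. The deposited XEN average was the mean of exactly 2 libraries, although 3 XEN samples are labelled, so XEN values here rest on 2 libraries, and which labelled sample is not among them was not given in the sources used here. Library letters are arbitrary and do not match replicate numbers. The library sizes ran from 181 to 288 M reads except for the shallower XEN library, which had 43.3 M reads, and a median region held 6 to 13 reads at 8h, 34 to 36 at d4 and 6 to 45 in XEN. Hence the earliest group with replicates was 8h, which served as the base of the tests.

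The median of the 3586 regions was 0.0656, 0.0564 and 0.0332 RPM in the 8h libraries. In the d1 libraries it was 0.0536, 0.0622 and 0.0607 RPM, within the 8h range. In the d2 libraries it was 0.0961, 0.148 and 0.14 RPM, and in the d4 libraries 0.186 and 0.187 RPM. The XEN libraries stood at 0.16 and 0.162 RPM. All d2, d4 and XEN libraries were above all 8h libraries. The lowest d2 library was also lower over all recovered regions (median log2 value of -2.56 against -2.24 and -2.29), and its part in the spread at d2 was not tested.

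A measure that does not depend on scaling is the share of the reads in recovered regions that fell in these 3586. It was 7.12% ± 0.969 at 8h, 6.37% ± 0.466 at 16h, 6.36% ± 0.8 at d1 and 8.94% ± 0.595 at d2 (SD, n = 3 each). At d4 it was 14.6% ± 0.0707 and in XEN 17.1% ± 0.0707 (SD, n = 2 each). The lowest d4 library, at 14.5%, was above the highest d2 library, at 9.29%, and the XEN libraries, at 17.1% and 17.2%, were above both d4 libraries. Summed over all recovered regions, RPM was 6760, 9620 and 8670 in the d2 libraries and 6140 and 6450 in the d4 libraries. In XEN it was 4700 and 4670. The share is relative to that sum, so a higher share at d4 or in XEN need not stand for a higher level. In RPM the median of the 3586 regions was higher at d4 than at d2, and lower in XEN than at d4. For the 6144 regions the order of d4 and XEN changed with the scaling. Their median changes from d0 were 1.37 and 1.31 uncentred, 0.81 and 0.82 centred, and 0.89 and 0.99 after quantile normalisation.

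**Figure D2:**
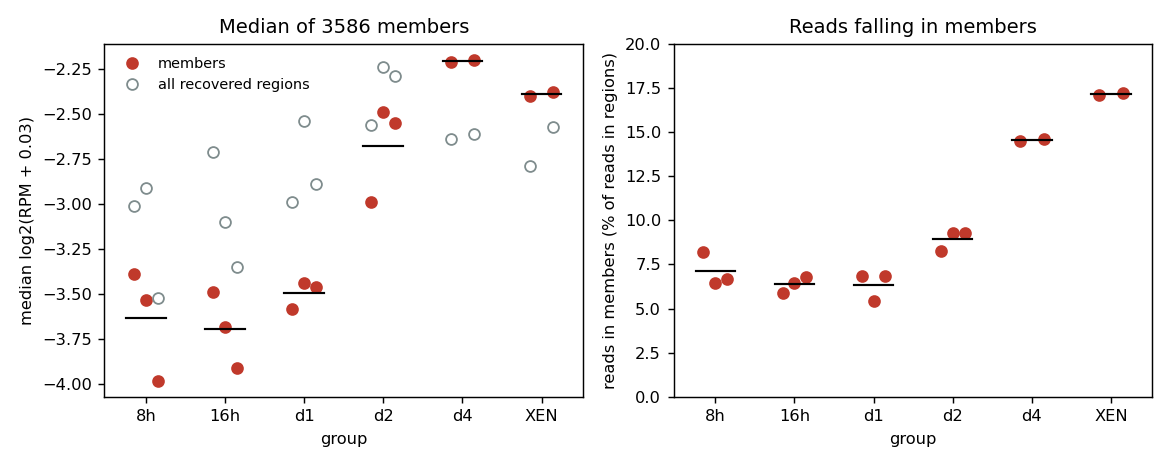
Left, median log2(RPM + 0.03) of the 3586 Late SOX17 regions without PTF (filled) and of all 24727 recovered regions (open) in each library, with the group mean of the filled points as a bar. Right, percentage of reads in recovered regions that fell in the 3586, with the group mean as a bar. The filled points lie below the open ones through d2 and above them at d4 and in XEN.

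Differences between libraries were tested with limma across all 24727 regions, calling a region at a Benjamini-Hochberg adjusted p under 0.05 with a log2 change of at least 1. From 8h to d1, 62 of the 3586 regions (1.73%) rose, beside 5.96% of all regions, and 0 fell in limma, although 332 had an unadjusted p under 0.05 upward and 21 downward. The count rests on single libraries: it was 10 without d1 library b, 13 without 8h library c, 108 without d1 library a and 116 without 8h library b. With libraries centred on their medians 10 rose and 17 fell, and after quantile normalisation 13 rose and 12 fell.

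At d2, 1591 regions (44.4%) rose against 8h, beside 36.8% of all regions, and 2 fell, beside 1.15%. The 2 that fell lay 7.02 kb from Cdv3 and in an intron of Best3, the latter named after its values were seen. With libraries centred on their medians, 532 rose and 125 fell at d2, so that the balance of higher against lower calls moved. At d4, 2398 regions (66.9%) rose against 8h, beside 30.5%, and 1 fell, again at Cdv3, beside 6.6%. Centring left 1374 higher and 2 lower at d4. The median change from 8h was 1.31 at d4 with a median standard error of 0.361.

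Both d4 libraries were above all 3 libraries of 8h at 3124 of the 3586 regions (87.1%), beside 48.7% of all recovered regions.

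Between d2 and d4 these regions moved against the general direction, as did Late regions without SOX17 and PTF. The latter had a median change of 0.16, with 64.8% higher at d4 than at d2. For the 6144 regions the median change was 0.37 in the averages, where that of all regions was -0.24. Of the 6144, 4723 (76.9%) were higher at d4 than at d2, beside 34.2% of all regions. Past 2-fold, 667 (10.9%) were higher, beside 2.05%. In limma, 390 of 3586 (10.9%) rose from d2 to d4, beside 2.1%, and 11 (0.307%) fell, beside 10.1%. The number that rose was 76 without d4 library a, 77 without d4 library b, 209 without d2 library a and 253 without d2 library c.

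The 10 regions with the largest change from d0 to d4 were all closed at d0 by the study's classes, with 0.0354 to 0.0877 RPM, and reached 0.722 to 1.36 RPM at d4. Their changes ran from 3.47 to 3.73. They carried the names Crim1, Fhdc1, Eps8, Ank2, Abhd5, Cald1, Ctsh, Scoc, Ehd4 and Dkk2. All 10 were at or below 0.17 RPM at d1, and 9 of them were between 0.508 and 1.53 RPM at d2, the exception being Cald1 at 0.256 RPM.

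The first of them was an intron of Crim1 (chr17:78306253-78306880), the gene of a transmembrane protein that binds bone morphogenetic proteins, with 0.0605 RPM at d0, 0.508 at d2, 1.17 at d4 and 1.22 in XEN. It held no SOX17 motif match.

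An intron of Eps8 (chr6:137645049-137645735), whose protein caps and bundles actin filaments, had 0.108, 0.0846 and 0.0332 RPM at 8h. At d1 it had 0.111, 0.227 and 0.171 RPM, and at d2 0.896, 2.03 and 1.67 RPM. At d4 it had 1.23 and 1.31 RPM, and in XEN 0.0971 and 0.115 RPM. The d2 and d4 libraries were all above those of 8h, d1 and XEN. The log2 change was 3.70 ± 0.36 (SE) from 8h to d4 (limma, adjusted p = 5.49e-21), and from d4 to XEN the log2 value fell by 3.26 ± 0.40 (adjusted p = 1.05e-12).

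A region 25.9 kb from Abhd5 (chr9:122389036-122390287), the gene of a coactivator of triglyceride lipase, behaved otherwise in XEN. It had 0.159, 0.122 and 0.076 RPM at 8h, 0.669, 1.21 and 0.964 RPM at d2, and 1.24 and 1.47 RPM at d4. In XEN it had 0.967 and 1.02 RPM, somewhat under both d4 libraries. From 8h to d4 it rose by 3.25 ± 0.36 (SE) in log2 (limma, adjusted p = 1.16e-16), while the XEN difference of -0.43 ± 0.40 did not pass (adjusted p = 0.465).

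An intron of Cald1 (chr6:34765706-34766321), which encodes the actin- and myosin-binding protein caldesmon, opened later. It had 0.0797, 0.0423 and 0.00475 RPM at 8h, 0.179, 0.319 and 0.271 RPM at d2, and 0.749 and 0.695 RPM at d4. Its XEN libraries had 0.44 and 0.346 RPM, between those of d2 and d4. From 8h to d4 it rose by 3.53 ± 0.36 (limma, adjusted p = 3.3e-19).

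Near Ctsh, the gene of the lysosomal protease cathepsin H, and near the start of Scoc, which encodes a Golgi coiled-coil protein, the rises from 8h to d4 were 3.14 ± 0.36 and 3.43 ± 0.36 (SE, limma, adjusted p = 1.12e-15 and 2.72e-18). The Ctsh region kept 0.655 and 0.854 RPM in XEN, whereas the Scoc region had 0.0832 and 0.139 RPM there. The other regions of the 10 had no recovered libraries. Among them the averages at Dkk2, a secreted inhibitor of WNT signalling, were 1.00 RPM at d4 and 0.934 in XEN. At Ehd4, an endosomal recycling protein, they were 1.04 and 0.191 RPM. Regions that opened alike in induced cells therefore had very different levels in XEN.

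The 5 largest differences downward from d0 to d4 did not reach 2-fold. They ran from -0.79 at the region near Cdv3 to -0.49 at Pstpip2, and all 5 were of moderate accessibility at d0. With columns centred on their medians they were all past 2-fold, from -1.35 at Cdv3 to -1.05 at Pstpip2. The Cdv3 region (chr9:103372607-103373038) had 0.248, 0.498 and 0.223 RPM at 8h and 0.141 and 0.0962 RPM at d4, without overlap. Its limma change from 8h to d4 was -1.19 ± 0.36 (SE, adjusted p = 0.00351). The Aff1 region changed by -0.60 ± 0.36, which did not pass (adjusted p = 0.16).

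The 2 regions nearest the 2-fold limit at d4 on each side had low values, where the added 0.03 RPM understates the change in RPM. Just above it, a region in Rgs6 went from 0.0393 to 0.109 RPM and a region in Nedd9 from 0.0212 to 0.0724 RPM. Just below it, a region in Chm went from 0.0172 to 0.0644 RPM and a region in Lhfpl2 from 0.0348 to 0.0995 RPM. The changes of all 4 rounded to 1.00 on the log2 scale.

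XEN cells differed from d4 cells in both directions at these regions. The median difference was -0.10 with quartiles of -0.62 and 0.45. In the averages 582 regions (9.47%) were more than 2-fold above d4 in XEN, beside 6.83% of all regions, and 735 (12%) more than 2-fold below, beside 12.9%. Among the 3586, limma called 287 (8%) higher in XEN, beside 5.52%, and 440 (12.3%) lower, beside 13.5%. These shares were near the background in both directions, and quantile normalisation turned the balance to 545 higher and 337 lower. Leaving out a d4 library or a XEN library reduced the higher calls to between 102 and 188, and leaving out either d4 library or XEN library b reduced the lower calls to between 172 and 225. Without XEN library a, 314 were lower. Libraries were not recovered evenly over chromosomes, and the 3586 regions had a median difference of -0.18 in limma, against -0.10 for all in the averages. Among chromosomes without recovered libraries, the median of XEN minus d4 was 0.12 to 0.31 on 14, 16, 18 and 19. It was -0.10 on 3, -0.25 on 15, -0.32 on 17 and 0.01 on X. The part of this in the balance of calls was not tested.

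The 5 largest increases from d4 to XEN lay at Cntn4, Ptbp2, Pde6c, Speer4f1 and Maml2, all closed at d0. An intron of Cntn4 (chr6:105917976-105918731), the gene of a neuronal adhesion molecule, had 0.0653 and 0.0428 RPM at d4 and 0.815 and 0.693 RPM in XEN. Its highest library in any other recovered group had 0.0752 RPM, at 8h. The rise from d4 was 3.23 ± 0.40 (SE, limma, adjusted p = 1.31e-12), and the XEN libraries were the only ones with a high level. An intron of Maml2, a coactivator of Notch signalling, had 0.116 and 0.102 RPM at d4 and 0.728 and 0.808 RPM in XEN (2.53 ± 0.40, adjusted p = 6.65e-08).

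The 5 largest decreases from d4 to XEN lay at Eps8, Pard6b, Msgn1, Col4a1 and Ryr2. A region 17.8 kb from Msgn1 (chr12:11226567-11227174), a regulator of presomitic mesoderm, had 0.271, 0.529 and 0.499 RPM at d2, 0.462 and 0.55 RPM at d4 and 0.0555 and 0.0231 RPM in XEN. Its log2 value fell by 2.99 ± 0.40 from d4 to XEN (limma, adjusted p = 7.4e-11). The intronic Col4a1 region had 0.357 RPM at d4 and 0.0271 RPM in XEN, below its 0.0919 RPM at d0.

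Sorted by the group with the highest average, 2618 regions (42.6%) were highest in XEN, 2453 (39.9%) at d4 and 1042 (17%) at d2. Among all regions these shares were 25.6%, 14.5% and 39.4%. Regions highest at d2 had medians of 0.0587 RPM at d0, 0.101 at d1, 0.303 at d2, 0.237 at d4 and 0.131 in XEN. Those highest at d4 had 0.0447, 0.0574, 0.151, 0.236 and 0.136 RPM in the same groups. Those highest in XEN had 0.0398 RPM at d0, 0.0471 at d1, 0.079 at d2, 0.126 at d4 and 0.223 in XEN.

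The 3 sets were chosen on accessibility, and their order in these values is not a result. In features that did not choose them they differed as follows. Of the regions highest at d2, 64.4% were closed at d0 (a class made from the d0 values), 13.1% lay at promoters and 71.9% held a SOX17 motif match. For those highest at d4 the shares were 84.9%, 5.67% and 79.4%, and for those highest in XEN 90.8%, 2.52% and 83.7%. The median distance to a gene start was 16.7 kb, 17.2 kb and 27.5 kb.

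**Figure D3:**
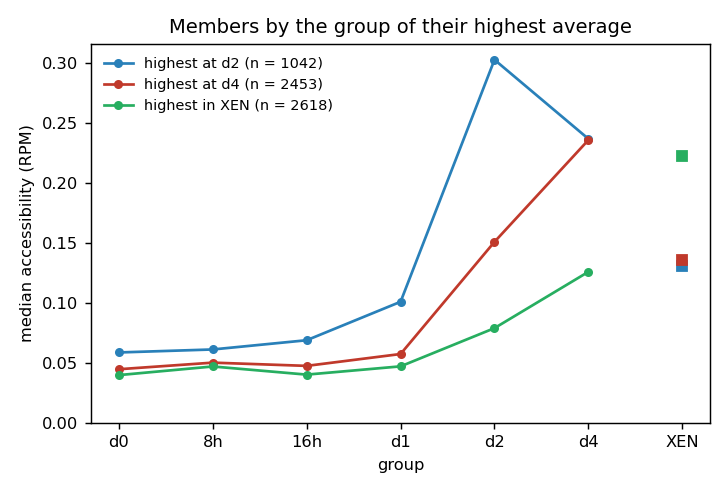
Median accessibility in RPM by group for Late SOX17 regions without PTF, split by the group in which their average was highest. Squares are XEN cells. The sets highest at d2 and at d4 share a d4 median near 0.237 RPM, and the set highest in XEN is at 0.126 RPM at d4 and 0.223 RPM in XEN.

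By the study's classes of d0 accessibility, 5137 regions (83.6%) were closed, 868 moderate and 139 accessible. Closed regions were 61.3% of all regions and 84.2% of Late regions without SOX17 and PTF. Within the closed, moderate and accessible classes the d4 and XEN changes were as follows. The median change at d4 was 1.46, 1.00 and 0.82 in that order, and in XEN 1.42, 0.70 and 0.07. In the accessible class, 69.8% lay at promoters, the median was 0.400 RPM at d0, 0.848 at d2, 0.716 at d4 and 0.420 in XEN, and only 5 of 139 were more than 2-fold above d0 in XEN.

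The study also sorted regions by histone marks of ES cells. Facultative heterochromatin, the kind marked by Polycomb, held 2044 regions, and chromatin without marks (called naive) 1541. Primed enhancers held 749, poised enhancers 729, constitutive heterochromatin 691, promoters 211 and active enhancers 179. At d4 the median change was 1.51 in facultative heterochromatin, 1.47 in unmarked chromatin, 1.33 in constitutive heterochromatin and at primed enhancers, 1.26 at poised enhancers, 0.90 at active enhancers and 0.86 at promoters. In XEN it ran from 1.57 in unmarked chromatin to 0.22 at promoters. Constitutive heterochromatin started from the lowest median, 0.0336 RPM, and reached 0.132 RPM at d4, with 67.4% of its regions past 2-fold.

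By position in the GENCODE annotation, 3033 regions (49.4%) lay in introns, 2649 (43.1%) between genes, 344 (5.6%) within 1 kb of a protein-coding gene start, 80 in UTRs and 38 in coding exons. Introns and intergenic regions had median d4 changes of 1.36 and 1.43, and promoters 1.06. The median distance to a gene start was 21.1 kb, and 22.1 kb for all regions.

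In these regions SOX17 motif matches were more common, and the best GATA6 matches scored lower, than in the sets named next, while Late regions with SOX17 and ectopic PTF (PTF binding gained during induction) had values close to these in both. A SOX17 motif match was present in 4912 regions (79.9%), against 54.5% of Late regions without SOX17 and PTF, 76.2% of Early&Constant regions with SOX17 and without PTF, and 69.2% of all regions. The best SOX17 match scored a median of 10.1, against 9.42, 9.77 and 9.75. A GATA6 match was present in 5311 (86.4%), against 86.7%, 95.9% and 89.7%, and its best score had a median of 9.35, against 9.63, 11.2 and 10.2. SOX17 matches numbered 3.0 per kb of region, against 2.24, 2.30 and 2.22, and GATA6 matches 4.04 per kb, against 5.14, 4.64 and 4.05. In Late regions with SOX17 and ectopic PTF, a SOX17 match was present in 81.9%, with a median best score of 10.2, and the median best GATA6 score was 8.98. SOX17 binding chose the regions, so these values are a description with no test.

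In letters, the core AGATAAGA was the best GATA6 match of 11.1% of the regions with one, against 13.1% of Late regions without SOX17 and PTF and 23.4% of Early&Constant regions with SOX17. AGATAAGG made up 7.14%, against 8.4% and 15.1%, and AGATAACA 6.80%, against 6.76% and 6.31%, so the larger gap was to the Early&Constant set. The most frequent best SOX17 matches were TTCATTGTT (122 of 4912), TCCATTGTT (116), TCCATTGTC (108) and CCCATTGTC (106), the first of which made up 2.48%, against 1.8% and 1.84% in the same sets.

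The best GATA6 match lay a median of 56 bp from the GATA6 summit, the base with the highest GATA6 signal, and the best SOX17 match 65 bp. In Late regions without SOX17 and PTF the distances were 41 and 76 bp, and in Early&Constant regions with SOX17 39 and 97 bp. Where both matches were present, the SOX17 match was the nearer to the GATA6 summit in 46.9% of these regions, against 36.7% and 33.6%, and 46.2% of Late regions with SOX17 and ectopic PTF. The centres of both matches were within 50 bp of each other in 26.8% of 4284 regions, against 28.3% and 23.2%, and on the same strand in 44.9%.

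**Figure D4:**
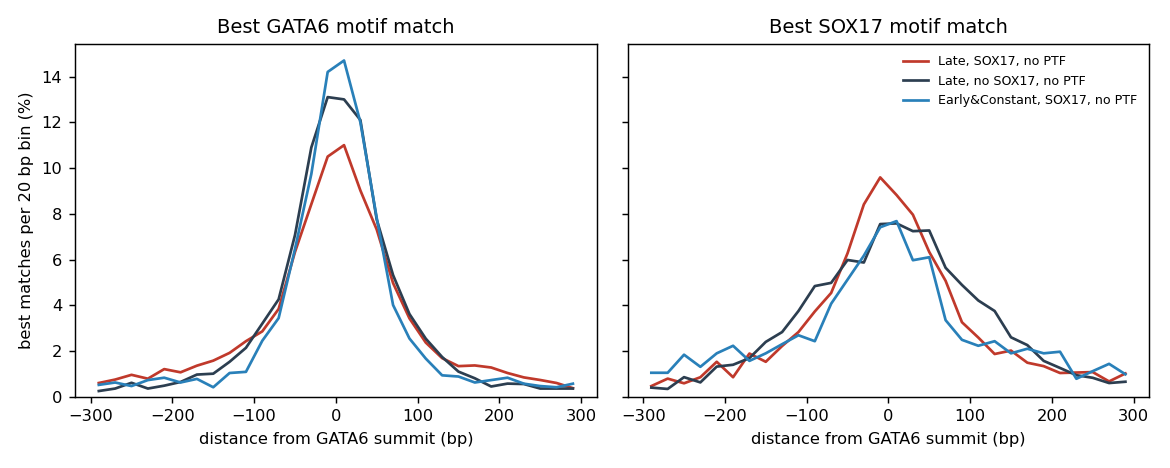
Distance of the best GATA6 match (left) and the best SOX17 match (right) from the GATA6 summit in bp, as percentage of best matches per bin of 20 bp, for Late SOX17 regions without PTF (red), Late regions without SOX17 and PTF (dark) and Early&Constant regions with SOX17 (blue). The red line is the lowest of the 3 at the summit for GATA6 and the highest for SOX17.

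Short words were searched on both strands in the 201 bp around the summit, without allowance for overlap between them. The SOX word ACAATG was present in 39.6% of the regions, against 19.1% of Late regions without SOX17 and PTF, 27% of Early&Constant regions with SOX17, 36.5% of Late regions with SOX17 and ectopic PTF and 23.0% of all regions. The GATA word AGATAA was present in 46.5%, against 53.4%, 68.7%, 37.3% and 54.3% in the same order. The AP-1 word TGACTCA was present in 11.1%, against 10.4%, 10.2%, 6.91% and 7.82%. For the forkhead word TGTTTAC the share was 9.70%, against 9.03%, 5.70%, 10.6% and 6.16%. For the HNF1 word GTTAAT it was 9.78%, against 6.31%, 8.1%, 16.9% and 9.11%. The TEAD word GGAATG was present in 15.6% (all regions 18.8%) and the HNF4 word CAAAGTCCA in 0.911% (0.509%). The octamer ATGCAAAT, bound by OCT4, was present in 0.521% (3.0%), and the ESRRB word TCAAGGTCA in 0.228% (1.16%). The rule required no PTF binding, so the last pair of values is not an independent result. G and C made up a median of 43.8% of these windows and 45.3% over all regions.

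Opening differed little with most of these words. The median d4 change was 1.37 with AGATAA and 1.37 without, 1.40 with ACAATG and 1.35 without, and 1.55 with GTTAAT and 1.35 without. With TGACTCA it was 1.22 and without it 1.39, while the median difference of XEN from d4 was 0.21 with TGACTCA and -0.13 without. For GTTAAT that difference was -0.34 with and -0.08 without. Across the regions Spearman's rho of the d4 change was 0.00 with the best GATA6 score (n = 5311), 0.06 with the best SOX17 score (n = 4912), 0.13 and 0.11 with the numbers of GATA6 and SOX17 matches, and 0.31 with region width (n = 6144 each). Wider regions hold more matches and more reads, and the regions share libraries, so these are descriptions without a test.

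The numbers of SOX17 and of GATA6 matches both went with the change in XEN more than with that at d2. Regions with no match, 1 match, 2 to 3 matches and 4 or more had median changes of 0.96, 0.95, 0.95 and 0.99 at d2, 1.28, 1.32, 1.43 and 1.63 at d4, and 1.08, 1.23, 1.42 and 1.76 in XEN. Their median widths were 404, 434, 520 and 701 bp. For the same numbers of GATA6 matches the median changes were 0.91, 0.93, 0.95 and 1.04 at d2 and 1.13, 1.22, 1.33 and 1.59 in XEN, with widths of 359, 403, 494 and 719 bp. The part of width in these orders was not tested.

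Set beside the most similar regions, those with SOX17 and without PTF had a larger median change than Late regions without SOX17, by a wider margin at d4 than in XEN. The 6414 Late regions without SOX17 and PTF had median changes of 0.41 at d2, 0.62 at d4 and 1.07 in XEN, with 24.8% past 2-fold at d4 and 54.7% in XEN. Their accessibility was highest in XEN in 64.7% of cases. The 2001 Early&Constant regions with SOX17 and without PTF had 1.27, 1.11 and 0.80, with 56.8% past 2-fold at d4. The 1259 Late regions with SOX17 and ectopic PTF had 1.94, 1.87 and 0.99, with 83.3% past 2-fold at d4.

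Widths differed between these sets, with medians of 470 bp here and 339, 601 and 631 bp in the sets just named, in that order. Restricted to regions of 300 to 600 bp, an alternative chosen after seeing the data, the median d4 changes were 1.33 here and 0.68, 1.13 and 1.70, and the XEN changes 1.24 and 1.13, 0.80 and 0.77. Restricted to regions closed at d0, they were 1.46 here and 0.63, 1.25 and 2.10 at d4. In limma, 66.9% of the regions with SOX17 and without PTF rose from 8h to d4, against 23.7% of Late regions without SOX17 and PTF, 54.6% of Early&Constant regions with SOX17 and 84.1% of Late regions with ectopic PTF. These shares were set side by side with no test of their difference.

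The 6144 regions carried the names of 3888 genes, of which 123 had 5 or more. Adamts9, a secreted metalloprotease that cleaves matrix proteoglycans, had 11, of which 10 were past 2-fold at d4. Magi2, a scaffold of cell junctions, and Palld, an actin-associated protein, also had 11, with 10 and 7 past 2-fold at d4. At Palld all 11 were so in XEN, but it lies on chromosome 8, where the median difference of XEN from d4 over all regions was 0.22. Prkce, a protein kinase C, had 11 as well, with 7 past 2-fold at d4 and 7 in XEN.

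The counts of gene lists that follow stand beside 70.7% past 2-fold at d4, 65.6% past 2-fold in XEN and 66.9% called higher in limma over all regions of this kind. Of 17 primitive endoderm transcription factor genes, 11 had regions of this kind, 58 in all, and 42 were past 2-fold at d4 and 42 in XEN. Of 28 tested, 19 rose from 8h to d4 and none fell in limma. Gata4 had 7 regions, all past 2-fold, Tcf7l2 9 with 6, Foxa2 7 with 4, Creb3l2 6 with 6, Gata6 itself 6 with 3, and Sox17 4 with 3.

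At the Sox17 promoter (chr1:4493473-4493867), accessible at d0 with 0.314 RPM, the 8h libraries had 0.178, 0.277 and 0.223 RPM and the 16h libraries 0.564, 0.379 and 0.313 RPM. The d2 libraries had 0.909, 1.3 and 1.23 RPM, the d4 libraries 0.94 and 0.967 RPM, and the XEN libraries 1.1 and 0.508 RPM. All libraries from 16h on were above those of 8h. The change from 8h to d4 was 1.96 ± 0.36 (SE, limma, adjusted p = 6.21e-07). A region 90.6 kb from Tcf7l2, which encodes a DNA-binding partner of beta-catenin, had averages of 0.0679 RPM at d0 and 0.937 at d4.

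Basement membrane and matrix genes, whose products primitive endoderm secretes, had 30 regions at 11 of 14 genes. Of these 23 were past 2-fold at d4 but 10 in XEN, with medians of 0.064 RPM at d0, 0.245 at d4 and 0.152 in XEN, and 15 of 22 tested rose from 8h to d4 while none fell in limma. At the promoter of Lamb1, a laminin chain, the 8h libraries had 0.511, 0.799 and 0.323 RPM, the d4 libraries 1.14 and 1.11 RPM and the XEN libraries 0.857 and 0.462 RPM (8h to d4, 1.09 ± 0.36, limma, adjusted p = 0.00756).

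At an intron of the collagen IV gene Col4a1 (chr8:11274137-11275433) the 8h libraries had 0.169, 0.094 and 0.0997 RPM, the d2 libraries 0.323, 0.676 and 0.581 RPM, and the d4 libraries 0.714 and 0.748 RPM. The XEN libraries had 0.0867 and 0.115 RPM, near those of 8h. It rose by 2.37 ± 0.36 from 8h to d4 (limma, adjusted p = 1.37e-09) and its log2 value fell by 2.55 ± 0.40 from d4 to XEN (adjusted p = 5.24e-08).

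Signalling receptor and ligand genes had 37 regions at 13 of 26 genes, 33 past 2-fold at d4 and 27 in XEN, and 23 of 30 tested rose while none fell in limma. Fgfr2 had 7 regions and Kit 5, all past 2-fold at d4. A region over a coding exon of Kit, the stem cell factor receptor (chr5:75640402-75640968), had 0.122, 0.103 and 0.0142 RPM at 8h, 0.17, 0.495 and 0.455 RPM at d2, 0.719 and 0.625 RPM at d4, and 0.694 and 0.716 RPM in XEN. The d4 and XEN libraries overlapped and were all above those of d2. Its rise from 8h to d4 was 2.86 ± 0.36 (limma, adjusted p = 2.35e-13). A region 18.4 kb from Wnt11, a secreted WNT ligand, had 0.744 and 0.737 RPM at d4 and 0.218 and 0.277 RPM in XEN (8h to d4, 2.84 ± 0.36, adjusted p = 3.62e-13).

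Endocytic receptor and apical protein genes had 11 regions at 5 of 9 genes, 7 past 2-fold at d4 and 6 in XEN. The single one tested was not called in limma. Lrp2, the gene of the endocytic receptor megalin, had 4, the highest going from 0.076 RPM at d0 to 0.560 at d4 and 0.376 in XEN. Secreted visceral endoderm protein genes had 8 regions at 5 of 12 genes, 7 past 2-fold at d4, and both tested rose. Of the 8, 4 lay at Amot, whose product angiomotin is a protein of cell junctions and not a secreted one. The highest of the list lay at the start of Ttr, the carrier of thyroid hormone and retinol, with 0.0562 RPM at d0, 0.114 at d2, 0.437 at d4 and 0.631 in XEN. Parietal endoderm genes had 6 regions at 5 of 13 genes, 5 past 2-fold at d4, and both tested rose. In an intron of Pth1r, a parathyroid hormone receptor, the 8h libraries had 0.0609, 0.0564 and 0.038 RPM and the d4 libraries 0.447 and 0.385 RPM (2.45 ± 0.36, limma, adjusted p = 3.32e-10).

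Lists of other lineages were counted in the same way. Pluripotency genes had 15 regions at 5 of 18 genes, 9 past 2-fold at d4, and 5 of 8 tested rose while none fell in limma. The highest at d4 lay 265 kb from Klf4 and 407 kb from Sox2, far from either gene. The Klf4 region rose by 1.82 ± 0.36 from 8h to d4 (limma, adjusted p = 4.11e-06). Trophoblast genes had 5 regions, 4 of them at Elf5, with 4 past 2-fold at d4, and the Elf5 region shown above had 0.151 RPM at d0, 0.447 at d4 and 0.549 in XEN. Genes of embryonic mesoderm and definitive endoderm had 8, 7 of them at Foxa2, which the first list also holds, with 5 past 2-fold at d4, and the 1 tested, at Cxcr4, rose. The 8 feeder fibroblast genes had none, with 16 GATA6-bound regions of any kind there. Regions of this kind were 14.5% of all GATA6-bound regions. Their share was 25.4% at primitive endoderm transcription factor genes (of 228), 22.6% at matrix genes (of 133) and 17.5% at signalling genes (of 211). It was 14.9% (of 74), 25.0% (of 32) and 15.8% (of 38) at endocytic, secreted and parietal endoderm genes. At pluripotency, trophoblast and mesoderm genes it was 8.02% (of 187), 10.9% (of 46) and 18.2% (of 44).

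By chromosome the difference between XEN and d4 varied and that between d4 and earlier groups did so less. Chromosome medians of the d4 change from d0 lay between 1.25 and 1.51, and those of d4 minus d2 between 0.30 and 0.45. Medians of XEN minus d4 lay between -0.37 on chromosome 11 and 0.31 on chromosome 16, and they were above 0.2 on chromosomes 6, 8, 16 and 19. Over all regions of the same chromosomes, XEN minus d4 ran from -0.30 to 0.30.

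Where libraries were recovered, both XEN libraries showed it. On chromosome 8 they differed from the d4 mean by 0.23 and 0.39, on chromosome 6 by 0.19 and 0.24, and on chromosome 11 by -0.37 and -0.33. The d4 libraries differed from each other by at most 0.13 in any chromosome median. On the chromosomes above 0.2, limma called 121 of 701 regions (17.3%) higher in XEN and 35 lower, while on the others it called 166 of 2885 (5.75%) higher and 405 (14%) lower. The split was made on these medians, only chromosomes 6 and 8 of the 4 had recovered libraries, and the calls are a description. On chromosomes 6 and 8 the medians of XEN minus d4 were 0.21 and 0.27 here and 0.21 and 0.22 over all regions. The shift was thus not particular to these regions, and calls over all regions of these chromosomes were not counted.

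**Figure D5:**
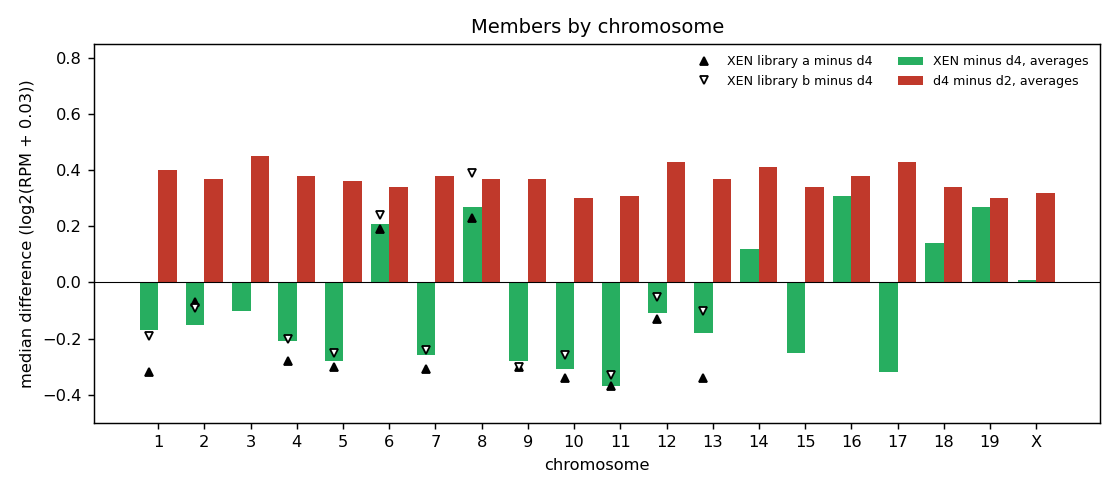
Median difference in log2(RPM + 0.03) at Late SOX17 regions without PTF by chromosome, XEN minus d4 (green) and d4 minus d2 (red), from the averages. Triangles are single XEN libraries against the d4 mean where libraries were recovered. Green bars run from -0.37 to 0.31 and red bars from 0.30 to 0.45.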

How the data were processed

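Per the labels and methods, base calls went through bcl2fastq, cutadapt removed adapters, Bowtie2 placed reads on mm10, SAMtools kept MAPQ above 30 without duplicates, insertions were shifted by 4 or 5 bp by strand, and bamsignals counted fragments under 100 bp in each region. The deposited values are RPM, reads per region scaled to library size, which the authors averaged over samples of each group (for XEN the average holds 2 libraries of 3 labelled samples, and for d0 the number could not be read from the values). The deposited motif matches are scores, and the classes of regions are the authors' own. Of the 105 columns, 52 of ChIP-seq, input and histone values were not used, nor was the class giving the authors' comparison after Oct4 knockdown.

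From these values, whole reads of single libraries were recovered (tolerance 1e-07 reads) and tested with limma 3.58.1 in R 4.3.3 on log2(RPM + 0.03), without trend or robust settings, adjusted by Benjamini-Hochberg over 24727 regions. Recovery and test were checked on simulated data. Samples of a group were separate cultures of 1 line. The standard error of a contrast was the same at every named region with libraries. It was 0.32 from 8h to d2, 0.36 from 8h to d4 and 0.40 from d4 to XEN. Standard errors and p-values thus rest on a spread between cultures shared by regions and groups, not on that of the single region. Recovery took each value to hold the worth of at least 1 read in every library. The read numbers given here leave that 1 out, and the RPM values keep it. Values such as 0.0231 RPM near Msgn1 in XEN and 0.00475 RPM at Cald1 at 8h are thus the lowest step of their libraries. Whether that step holds a counted read was not tested. Regions were named by GENCODE release M21, with promoters within 1 kb of a protein-coding start, and sequences were read from the RefSeq GRCm38 (mm10) genome. The regions and gene lists were chosen with earlier results of these data known. Named regions were the 10 largest rises and 5 largest falls from d0 to d4, the 5 of each from d4 to XEN, the 2 on each side of 2-fold, and per gene list the 2 highest at d4. Other pseudocounts, centring, quantile normalisation, filters and leaving out each library were tried.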

Additional observations from a re-analysis of the deposited data

How the results depend on the processing

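Every alternative kept the direction of the median changes of these regions from d0, but their sizes moved. The order of the d4 and XEN medians was not kept under centring or quantile normalisation. The median difference of XEN from d4 was not recomputed. With a pseudocount of 0.006 RPM the median change from d0 was 1.25 at d2, 1.79 at d4 and 1.72 in XEN, 283 regions were past 2-fold at d1, and limma called 258 higher from d2 to d4 and 187 higher in XEN than at d4. With 0.15 RPM the medians were 0.46, 0.7 and 0.64, regions past 2-fold numbered 0 at d1, 1094 at d2, 1798 at d4 and 1595 in XEN, and limma calls numbered 0 at d1, 603 at d2 and 986 at d4 against 8h, 49 at d4 against d2, and 67 higher and 150 lower in XEN. With columns centred on their medians, the medians were 0.12, 0.81 and 0.82, and counts past 2-fold were 3 at d1, 945 at d2 (114 lower), 2478 at d4 and 2516 in XEN. All regions then had medians of -0.04 at d4 and -0.09 in XEN. Centred libraries gave limma calls of 10 at d1 (17 lower), 532 at d2 and 1374 at d4, and 842 from d2 to d4. Quantile normalisation gave medians of 0.31, 0.89 and 0.99, counts of 2, 891 and 2648 past 2-fold at d1, d2 and d4, an XEN median of -0.04 over all regions, and limma calls of 13 at d1 (12 lower), 513 at d2, 1477 at d4 and 545 higher in XEN (337 lower). Keeping only regions with a mean of at least 0.1 RPM (3191 of them) gave medians of 1.28, 1.72 and 1.5 and 2616 and 2217 past 2-fold at d4 and in XEN. On the 1903 such regions with libraries, limma called 1537 at d4, 218 from d2 to d4 and 121 higher in XEN, from fewer regions. With column minima subtracted the d4 median was 1.44. The causes of the other shifts were not tested.

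Leaving out each library in turn gave 10 to 116 calls at d1, 1295 to 1845 at d2, 2072 to 2534 at d4, 76 to 390 from d2 to d4, and 102 to 300 higher and 172 to 468 lower in XEN. Where a d4 or XEN library is left out, the lone one is assumed to vary like the other groups. No paired analysis was possible because recovered libraries carry no replicate numbers and the averages hold no replicates. Best GATA6 matches lay within 50 bp of the summit in 46.6% of cases, in 52% for scores of 10 or more and in 37.5% when measured from the region's centre, and best SOX17 matches in 41.8% and, from the centre, 34.3%. The comparison within widths of 300 to 600 bp was chosen after seeing the data. No d0 library and no library on chromosomes 3 and 14 to 19 or X was recovered, and on chromosome 2 only 14 of 449 regions. This limits every test to later groups and to 58.4% of the regions. Groups had at most 3 libraries, too few for a check of outlying samples.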
